A study of Mus musculus with 42 samples.

Results

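The peptidoglycan recognition proteins are 4 genes, Pglyrp1, Pglyrp2, Pglyrp3 and Pglyrp4, of the 20018 named genes on the array. They are read by 5 probes, A_55_P2081488 for Pglyrp1, A_52_P636427 and A_66_P120472 for Pglyrp2, A_55_P2163238 for Pglyrp3 and A_55_P2053704 for Pglyrp4, all found by gene symbol. The family was chosen by measured values, since both Pglyrp2 probes were lower in high-dose liver than in vehicle liver, and the values of that comparison are given as a description, with no test. Both Pglyrp2 probes carry the same RefSeq transcript in the array's own annotation, and they are therefore 2 readings of 1 gene and not replicates of each other.

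Liver, lung and forestomach came from male Muta™Mouse animals, a transgenic strain made for mutation assays, at about 11 weeks of age. For 28 days the mice were gavaged with olive oil that held benzo(k)fluoranthene (BkF), one of the polycyclic aromatic hydrocarbons, and they were killed 72 hours after the last gavage. BkF was given at 0 (vehicle, D0), 25 (low, D1), 50 (medium, D2) or 100 (high, D3) mg/kg-bw/day, and each dose is set against vehicle to ask whether BkF altered expression. Groups D0, D1, D2 and D3 held 4, 2, 3 and 4 arrays in liver, 4, 3, 4 and 4 in lung, and 4, 3, 4 and 3 in forestomach, each array from 1 mouse. Vehicle mice carried the same transgene and received the same oil. Every value below is a log2 ratio of tissue RNA (Cy5) to a reference RNA pooled from mouse cell lines (Cy3), so a value of 0 means the signal of the reference, and a ratio of 1 probe is not set against that of another. The number of arrays limits the precision.

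Peptidoglycan recognition proteins are secreted proteins of innate immunity that bind peptidoglycan, the cell wall polymer of bacteria. Pglyrp1 is stored in neutrophil granules and acts against bacteria directly. Pglyrp2 is an enzyme, an N-acetylmuramoyl-L-alanine amidase that hydrolyses peptidoglycan, and it is made in the liver and released into blood. Pglyrp3 and Pglyrp4 are made mainly by epithelia such as skin and those of the mouth and gut.

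The promoter of Pglyrp2 is shown because Pglyrp2 carries the liver result and BkF is a ligand of the aryl hydrocarbon receptor (AhR), whose DNA core motif is GCGTG. The 250 bases before the RefSeq start site lie at chr17:32420976-32421225 on the minus strand (GRCm38.p6) and read, 5′ to 3′:
Pglyrp2: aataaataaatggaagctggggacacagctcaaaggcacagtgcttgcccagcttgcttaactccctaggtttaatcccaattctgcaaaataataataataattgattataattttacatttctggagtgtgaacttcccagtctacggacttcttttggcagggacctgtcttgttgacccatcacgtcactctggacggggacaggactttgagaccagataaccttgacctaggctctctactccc
The motif GCGTG and the TATA motif TATAAA were searched on both strands in the 300 bases from 250 before to 50 after the start site, and capitals would mark a match. Neither motif was found in Pglyrp2 or in Pglyrp1, the 2 members with a promoter in the table. Of 32851 promoters of the same length, 32.4% held GCGTG and 13.6% held TATAAA on either strand. The absence of these letters says nothing of whether a factor binds there.

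In vehicle mice the family was split by tissue. Pglyrp2 was high in liver and near or below the reference elsewhere, Pglyrp1 was high in lung, and Pglyrp3 and Pglyrp4 were not well above background in any tissue. Probe A_66_P120472 of Pglyrp2 read 4.91, 4.79, 4.90 and 4.68 in the livers of vehicle mice 1, 2, 3 and 4, a mean of 4.82 ± 0.11 (SD, n = 4). In the lungs of the same mice it lay between -0.88 and -0.34, and in their forestomachs between -0.74 and -0.35. Liver lay above both other tissues on every array, while lung and forestomach overlapped.

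Probe A_52_P636427 of Pglyrp2 gave the same order, with 4.31, 4.36, 4.64 and 4.23 in the 4 vehicle livers, -0.38 to -0.10 in lung and -0.23 to 0.22 in forestomach. Across all doses, both Pglyrp2 probes were well above background in 13 of 13 livers, 0 of 14 forestomachs and 1 of 15 lungs, that of vehicle mouse 3. On the scale of the sample channel, the liver level exceeded that of forestomach at least 19.3-fold on A_52_P636427 and at least 44.8-fold on A_66_P120472. These bounds use the sample channel, whose normalisation also draws on the reference channel. They set a dim array to the smallest detected signal of that array, and are open to dye bias. On that scale the log2 signals in liver and forestomach averaged 10.48 and 6.18 on A_52_P636427 and 11.55 and 5.98 on A_66_P120472. Against lung, where 1 of the 4 vehicle arrays measured Pglyrp2, the bounds were at least 22.9-fold and at least 48.8-fold. They are no lower limits for the log ratios. The log ratios of A_66_P120472 gave fitted folds of 41.3 over forestomach and 45.1 over lung, below its bounds. Those of A_52_P636427 gave 20.7 and 25.2.

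Pglyrp1 had the opposite order. It read 2.16, 1.73, 2.18 and 1.26 in the lungs of vehicle mice 1 to 4, 0.22, 2.31, 1.85 and 0.11 in their forestomachs, and -0.04, -0.29, -0.35 and -0.09 in their livers. Lung and liver did not overlap. Forestomach split, with 2 arrays at lung level and 2 just above the livers. Pglyrp1 was not well above background in any of the 4 vehicle livers. On the sample channel scale of the bounds above, it was at least 3.54-fold lower there than in lung. On that scale it was at least 2.05-fold lower in liver than in forestomach, taking the mean of all 4 forestomachs, of which 2 measured it. Between lung and forestomach the fitted difference did not pass the test (0.71, SE 0.41, limma adjusted p = 0.17, 95% interval -0.18 to 1.60). Since 2 of the 4 forestomachs were not well above background, its size is uncertain.

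A call needed an adjusted p no greater than 0.05 together with a difference of 1.5-fold or more. Each member probe passed the filter through the tissues in which it is high, so a call against liver, lung or forestomach at background follows in part from the filter and is not counted as a result. Of all 28182 probes tested, 52.3% were called between liver and lung, 43.6% between liver and forestomach, and 38% between lung and forestomach, so a call between tissues was common. The share of probes without overlap between tissues was not counted, so the lack of overlap given above is a description and not a result about the members. The liver arrays were on slides of their own and were read with a newer software version, which cannot be told apart from the tissue. Each vehicle mouse gave all 3 tissues, and the mouse as a replicate block changed no member call.

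**Figure D1:**
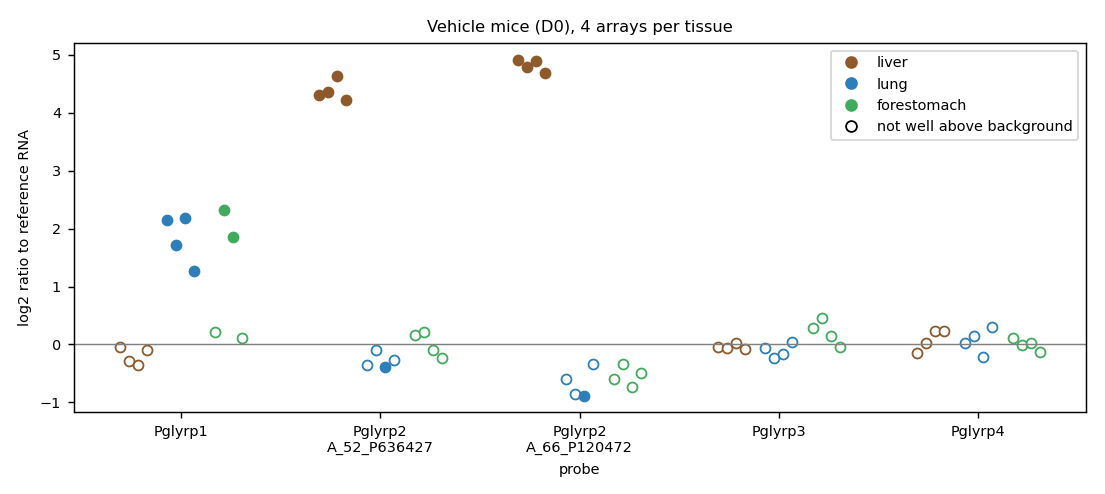
Log2 ratio to the reference RNA of the 5 probes in vehicle mice, with 1 point per array (4 per tissue) and open points for arrays on which the probe was not well above background. The liver points of Pglyrp2 lie between 4.23 and 4.91, far from those of lung and forestomach, the lung points of Pglyrp1 lie between 1.26 and 2.18, and Pglyrp3 and Pglyrp4 have open points alone.

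Before the doses are compared, several facts of the series bear on the members. Exposure was visible in the AhR targets Cyp1a1, Cyp1b1 and Ahrr. In lung all 3 rose at the high dose, Cyp1a1 by 6.81 (limma adjusted p = 0.0034), with 2 of the 3 well above background in each vehicle lung. In liver all 3 were well above background on every high-dose array and 0 of the 3 on any vehicle array, so no size is given there. Cyp1a1 was not called in high-dose liver (limma adjusted p = 0.13). All 10 liver markers were well above background on every liver array. In lung, forestomach and liver the slide column followed the dose group almost without exception, so column and dose cannot be told apart. Markers of other tissues stood out on single arrays. The liver of high-dose mouse 17 and the lung of medium-dose mouse 12 had skeletal muscle scores (the mean log2 ratio of the marker genes) 4.91 and 5.52 above the median of their tissue, and the forestomach arrays split into 5 with a glandular stomach score of 0.43 to 1.55 and 9 with 5.01 to 6.21.

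In liver, Pglyrp2 had lower values at every dose than in vehicle mice, with log2 differences of -0.63 to -0.46 at the low and medium dose and of -1.01 and -0.86 at the high dose. Neither of the lower doses passed the test, and the high dose was not tested. On A_52_P636427 the vehicle livers read 4.23 to 4.64, the low-dose livers of mice 8 and 9 read 3.73 and 3.94, and the medium-dose livers of mice 11, 12 and 13 read 3.48, 4.12 and 3.84. The high-dose livers of mice 16, 17, 19 and 20 read 3.34, 3.35, 3.13 and 3.66. No dosed liver reached the lowest vehicle liver, and the highest high-dose liver overlapped the medium-dose range.

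The brighter probe, A_66_P120472, read 4.04 and 4.34 in the low-dose livers, 4.33, 4.58 and 4.19 in the medium-dose livers and 3.90, 3.98, 3.79 and 4.18 in the high-dose livers. Again all 9 dosed livers lay below all 4 vehicle livers, which began at 4.68. The medium-dose mean of 4.36 ± 0.20 (SD, n = 3) was not below the low-dose mean of 4.19 ± 0.21 (SD, n = 2), and on both probes the ranges of these 2 doses overlapped. Of the 30460 probes kept in liver, 5.19% had every low-dose array below every vehicle array, 4.76% had this at the medium dose, 3.03% at the high dose and 0.473% at all 3 doses together. The last of these includes the comparison that chose the family, and nothing is read from it.

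At the high dose the difference from vehicle was -1.01 (SE 0.15) on A_52_P636427, 2.02-fold lower, and -0.86 (SE 0.12) on A_66_P120472, 1.81-fold lower, both given with no test. For background, 0.0525% of the 30460 liver probes were called at the high dose. At the medium dose the differences were -0.57 (SE 0.16, limma adjusted p = 0.27) and -0.46 (SE 0.13, limma adjusted p = 0.27), and at the low dose -0.55 (SE 0.19, limma adjusted p = 1.00) and -0.63 (SE 0.15, limma adjusted p = 1.00). Neither probe was called at these doses, where 0.0427% of liver probes were called at the medium dose and 0% at the low dose. Unadjusted, these p-values were 0.0041 and 0.0035 at the medium dose and 0.011 and 0.00082 at the low dose. The 3 doses share the vehicle livers on which the family was chosen, so the lower doses are no independent evidence of the direction.

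Liver arrays filled 2 slides, each with all 4 dose groups, and Pglyrp2 was lower in dosed livers within both. At the high dose, A_52_P636427 differed by -0.99 on one slide and -1.04 on the other, and A_66_P120472 by -0.91 and -0.81. At the medium dose the within-slide differences ran from -0.61 to -0.40 over both probes, and at the low dose from -0.81 to -0.45.

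The spike-ins moved the same way. Spike-ins are synthetic transcripts added to RNA before labelling, and 10 probes of the array read them. Their mean read 1.23, 1.28, 1.53 and 0.93 on the vehicle liver arrays, 0.96 and 1.03 at the low dose, 0.24, 0.34 and 0.85 at the medium dose and 0.50, 0.56, 0.87 and 0.37 at the high dose. The medium-dose and high-dose arrays lay below all vehicle arrays, and the low-dose arrays overlapped them. The mean change was -0.24 for low-dose arrays (-0.29 to -0.20 over the 10 probes), -0.77 for medium-dose arrays (-0.88 to -0.58) and -0.67 for high-dose arrays (-0.73 to -0.52).

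With every array centred on its spike-ins, Pglyrp2 differed from vehicle by -0.34 (SE 0.22) and -0.19 (SE 0.23) at the high dose and by -0.30 (SE 0.27) and -0.39 (SE 0.28) at the low dose. The sign turned at the medium dose, with 0.20 (SE 0.24) and 0.31 (SE 0.24). The same centring raised the median change of all 30460 liver probes to 0.24, 0.76 and 0.66 at the low, medium and high dose, since it shifts all probes of an array alike. Whether the spike-in shift has a part in the Pglyrp2 difference was not tested.

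**Figure D2:**
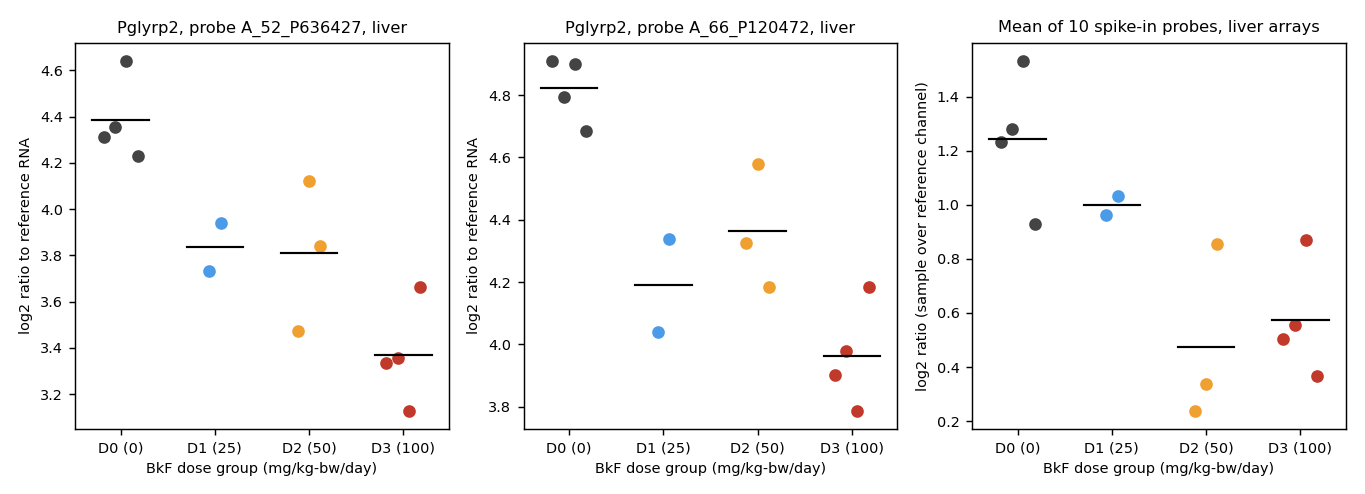
Log2 ratio of the 2 Pglyrp2 probes (left and centre) and the mean log2 ratio of the 10 spike-in probes (right) on the 13 liver arrays, by dose group, with 1 point per array and a line at the group mean. Each panel has its own axis range, which does not start at 0. All dosed arrays lie below all vehicle arrays for Pglyrp2, and the medium-dose and high-dose arrays do so for the spike-ins.

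The differences were also computed in other ways. From the log ratios of the scanner software, made by its own background and dye correction, the high-dose differences were -0.96 and -0.85, and the spike-ins in those ratios were lower there too, at a mean of -0.74 (-0.82 to -0.69). From the sample channel after loess and scaling between arrays, the Pglyrp2 differences at the high dose were -1.02 and -0.90. Both of these steps use the reference channel, so this is no check without the reference. At the low dose the scanner software's ratio of A_52_P636427 differed by -0.27 (SE 0.27), under the -0.55 given above. The reference channel of A_52_P636427 was not well above background on 1 high-dose array. Leaving out single mice moved the high-dose difference between -1.11 and -0.93 on A_52_P636427 and between -0.93 and -0.80 on A_66_P120472.

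**Figure D3:**
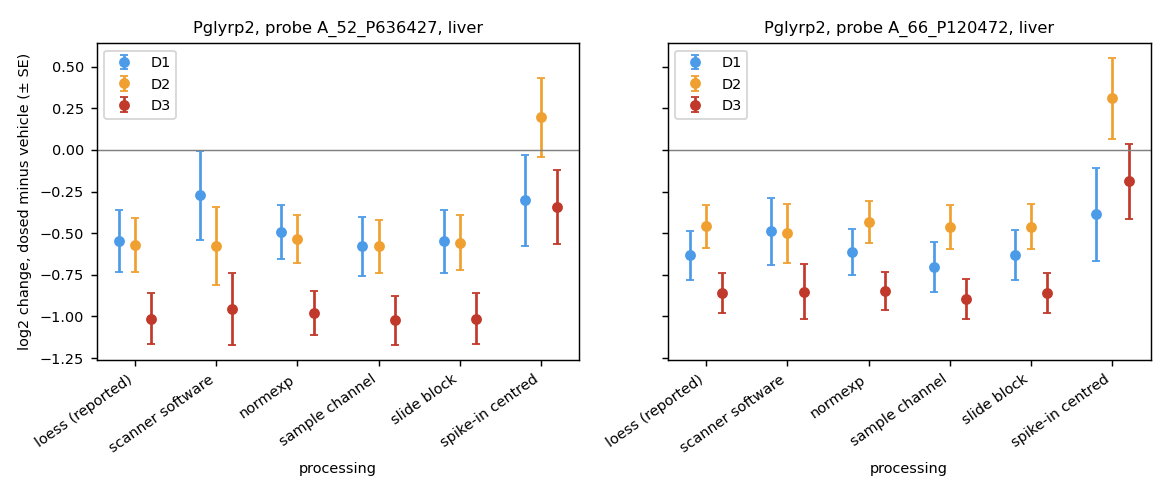
Log2 difference of Pglyrp2 between dosed and vehicle livers under 6 ways of processing, for each probe, with bars of 1 SE and colours for the dose groups. All settings but spike-in centring keep the 3 doses below 0, and under spike-in centring the medium-dose points lie above 0 (0.20 and 0.31).

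Pglyrp2 is a product of hepatocytes, and the liver markers were measured beside it. All 10 markers, among them Alb (albumin) and Apoa1 (a plasma lipoprotein), had lower values at the high dose, with a median of -0.33 and a range of -0.39 to -0.14. None was called, and the median of all probes was -0.005. At the medium dose the median of the 10 was -0.19 and at the low dose -0.11. In bulk tissue, fewer cells of a type and less RNA per cell cannot be told apart, and the part of the markers in the Pglyrp2 difference was not tested.

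The probes whose log2 ratio across the 13 livers was most like that of A_66_P120472, out of 18219 named probes kept in liver, were the other Pglyrp2 probe (Pearson r = 0.94), Sdsl (0.90), Slc35f3 (0.89), Pop1 (0.89) and Leprotl1 (0.88). The points share their dose groups, slides and spike-in shift, and the correlation is a description.

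Pglyrp1 in liver lay near the reference and close to background. Its 4 vehicle livers read -0.35 to -0.04, the low-dose livers 0.10 and 0.09, the medium-dose livers 0.12, 0.09 and 0.45, and the high-dose livers -0.08, 1.88, 0.15 and 0.54. The low-dose and medium-dose values lay above all vehicle values, which 6.11% and 4.5% of liver probes did at those doses, while high-dose mouse 16 lay among the vehicle livers. The probe was well above background in 0 of 4 livers of D0, 0 of 2 of D1, 1 of 3 of D2 and 3 of 4 of D3, and it passed the filter through dosed livers alone. No low-dose difference is given, since no array of either group measured the probe. No medium-dose difference is given either, since 1 of 3 livers measured the probe there, and it was not called. At the high dose the bound was at least 1.76-fold, on the sample channel scale of the bounds above, where the log2 signals averaged 6.82 in high-dose and 5.94 in vehicle livers. Without mouse 17, with 2 of the other 3 high-dose livers measured, the bound on that scale was at least 1.37-fold.

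Some of these livers also held markers of other tissues. The highest value, 1.88, came from high-dose mouse 17, the liver with the skeletal muscle score of 4.26, against -0.71 to -0.65 in the other high-dose livers. The neutrophil score of that liver was 0.80, against 0.11 to 0.35 in the other high-dose livers. In liver 2 of the 10 glandular stomach markers passed the filter, and the score from these was 2.47 in mouse 17, 1.78 in high-dose mouse 20 (Pglyrp1 at 0.54) and 0.064 to 0.52 in the other 11 livers. Of the 10 markers, 4 were well above background in mouse 17 and 2 in mouse 20, beside 3 in mouse 16, whose Pglyrp1 lay at vehicle level. The highest medium-dose value, 0.45, came from mouse 13, whose neutrophil score of 2.21 was the highest of the 13 livers, with 11 of 11 neutrophil markers well above background, and it was the medium-dose liver that measured Pglyrp1. The part of these other cell types in the Pglyrp1 values was not tested. Centred on the spike-ins, Pglyrp1 was called at the medium dose, as were 24296 of the 30460 liver probes under that scaling, so this call is not read as a result about Pglyrp1.

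In lung, Pglyrp1 was well above background on all 15 arrays and was not called at any dose. The vehicle lungs read 1.26 to 2.18, the low-dose lungs of mice 7, 8 and 9 read 2.46, 2.02 and 1.39, and the medium-dose lungs of mice 11, 12, 13 and 15 read 2.13, 2.69, 1.37 and 2.12. The high-dose lungs of mice 16, 17, 19 and 20 read 2.03, 1.75, 2.12 and 1.95. All 4 groups overlapped, and the high-dose lungs had the narrowest spread (SD 0.15, against 0.43 to 0.54 in the other groups).

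The lung differences from vehicle were 0.13 (limma adjusted p = 1.00, 95% interval -0.51 to 0.76) at the low dose, 0.25 (limma adjusted p = 1.00, 95% interval -0.34 to 0.84) at the medium dose and 0.13 (limma adjusted p = 0.96, 95% interval -0.46 to 0.72) at the high dose. For background, 0%, 0.0153% and 0.0336% of the 32697 lung probes were called at the 3 doses. The highest lung value, 2.69, was that of mouse 12, whose macrophage and squamous epithelium scores were also 2.66 and 2.77 above the lung median, and without it the medium-dose difference was 0.044 (SE 0.27). Without vehicle mouse 4, the lowest lung, that difference was 0.058 (SE 0.28). The next highest, 2.46, was that of low-dose mouse 7, whose glandular stomach score of 3.86 was 3.60 above the lung median, with 10 of 10 markers well above background. Without mouse 7 the low-dose difference turned to -0.12 (SE 0.32). The part of these cells was not tested. Centred on the spike-ins the high-dose difference turned to -0.25 (SE 0.27), since spike-ins were higher by 0.38 on the high-dose lung arrays. The median over all lung probes under that centring was -0.38.

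Pglyrp1 is a neutrophil granule protein, and neutrophil markers were therefore read beside it in lung. Of the 11 markers with a probe, 10, 10 and 8 had higher values at the low, medium and high dose, with medians of 0.40, 0.86 and 0.54, and none was called. The neutrophil score was 1.37 to 1.78 in vehicle lungs, 1.80 to 2.58 at the low dose, 2.25 to 3.39 at the medium dose and 1.97 to 2.38 at the high dose. The part of neutrophils in the lung values of Pglyrp1 was not tested. The 5 genes most like Pglyrp1 across the 15 lungs, of 19463 named probes, were Aspa (Pearson r = 0.96), Tmem51 (0.95), Zfp750 (0.93), Sdha (0.91) and Rnf208 (0.90). The points share dose groups and slides, and the correlation is a description. The lowest Pglyrp1 values, 1.26, 1.39 and 1.37 in mice 4, 9 and 13, came from the same slide, where mouse 20 read 1.95.

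**Figure D4:**
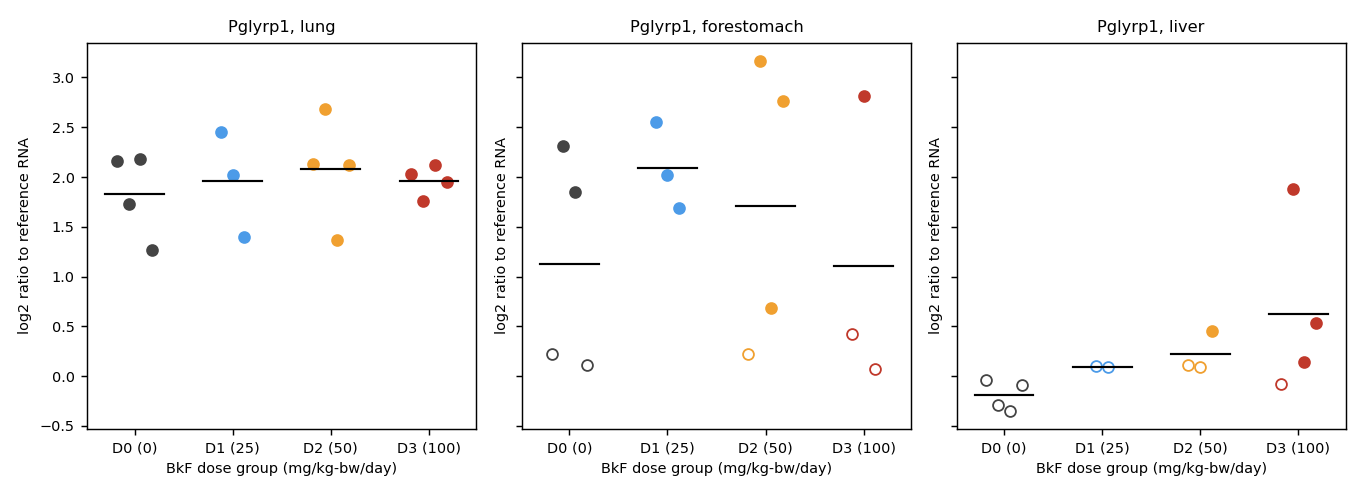
Log2 ratio of Pglyrp1 in lung, forestomach and liver by dose group, with 1 point per array, open points where the probe was not well above background, and a line at the group mean. The lung groups overlap around 2, the forestomach arrays split into high and low within D0, D2 and D3, and in liver mouse 17 stands alone at 1.88.

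In forestomach, Pglyrp1 varied more within dose groups than between them. It read 0.22, 2.31, 1.85 and 0.11 in vehicle mice 1 to 4, 2.55, 2.02 and 1.69 in low-dose mice 7, 8 and 9, 0.22, 3.17, 0.69 and 2.77 in medium-dose mice 11, 12, 13 and 15, and 0.42, 2.82 and 0.07 in high-dose mice 16, 17 and 20. Every dose group overlapped the vehicle group. The differences from vehicle were 0.97 (SE 0.83, limma adjusted p = 0.64), 0.59 (SE 0.77, limma adjusted p = 0.90) and -0.02 (SE 0.83, limma adjusted p = 1.00) at the low, medium and high dose. Leaving out single mice moved the low-dose difference between 0.63 and 1.36 and the medium-dose difference between 0.10 and 1.08. No probe of the 25305 kept in forestomach was called, 0% at each dose, though 3070, 1920 and 557 had an unadjusted p under 0.05.

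The forestomach values of Pglyrp1 went with the glandular stomach, neutrophil and liver marker scores. Glandular stomach is the acid-secreting part that adjoins the forestomach, which is lined by squamous epithelium. The 5 arrays with a score of 0.43 to 1.55 had Pglyrp1 values of 0.07 to 0.42, and Pglyrp1 was not well above background on any of them. The 9 arrays with a score of 5.01 to 6.21 had values of 0.69 to 3.17, all well above background, and the lowest of these, mouse 13, also had the lowest score of the 9. Both kinds of array occurred in D0, D2 and D3, and all 3 low-dose arrays were of the high kind. All 10 glandular markers were well above background on the high kind, and 10 or 11 of 11 squamous markers on every forestomach array. The neutrophil score, from 7 of the 11 markers with a probe, was 0.28 to 0.97 on the 5 arrays and 1.03 to 1.67 on the 9. The liver marker score, from 9 of 10 markers, was 0.15 to 0.37 on the 5 and 0.76 to 2.97 on the 9, with 2 to 4 and 4 to 9 of the 10 markers well above background. The 3 scores thus split the arrays alike, and the part of each in the Pglyrp1 values was not tested apart from the others. With the glandular score as a covariate, the differences became -0.30 (SE 0.43), -0.10 (SE 0.37) and 0.26 (SE 0.39), none of them called.

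**Figure D5:**
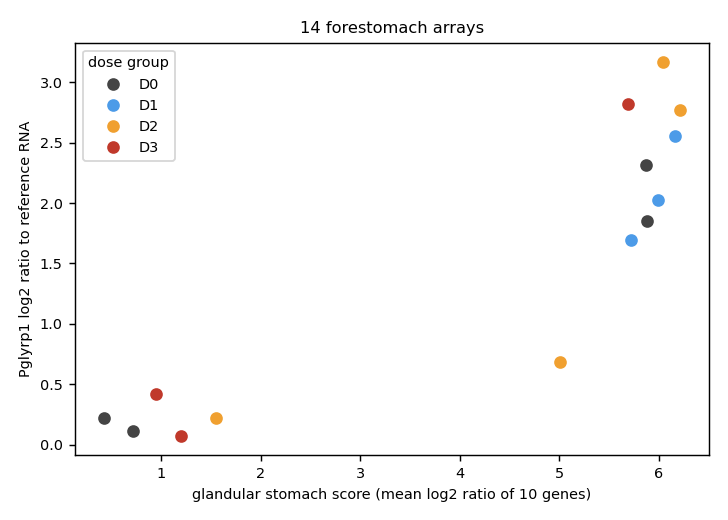
Pglyrp1 log2 ratio against the glandular stomach score (the mean log2 ratio of 10 marker genes) on the 14 forestomach arrays, coloured by dose group. The 5 arrays with scores up to 1.55 lie at 0.42 or below, and the 9 with scores from 5.01 lie at 0.69 or above.

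Pglyrp2 was at background in every forestomach, with values of -0.23 to 0.26 on A_52_P636427 and -0.74 to 0.03 on A_66_P120472, and in all lungs but that of vehicle mouse 3. Neither probe passed the filter in these tissues, so no dose comparison was made.

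Pglyrp3 and Pglyrp4 were not well above background on any of the 42 arrays. Pglyrp3 read -0.16 to 0.14 in liver, -0.17 to 0.45 in forestomach and -0.28 to 0.17 in lung, and Pglyrp4 read -0.16 to 0.24, -0.13 to 0.69 and -0.25 to 0.31. On the same forestomach arrays the squamous epithelium score was 3.01 to 4.32. A difference at or below background has no meaning as a fold, and neither gene was compared between doses.

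The other genes that sense peptidoglycan were read from a list of 17, which holds among others the cytosolic receptors Nod1 and Nod2, the membrane receptors Tlr1, Tlr2, Tlr6 and Cd14, their adaptors and kinases, and transporters that carry peptidoglycan fragments. None was called higher or lower at any dose in liver (14 kept), forestomach (12 kept) or lung (17 kept). In high-dose liver 7 were higher and 7 lower, with a median of -0.0027 beside -0.005 over all probes. The largest difference was that of Slc46a3, a lysosomal membrane transporter, at 0.78 (SE 0.15, limma adjusted p = 0.13). Slc46a3 was also the largest of the list in high-dose lung, at 0.93 (SE 0.15, limma adjusted p = 0.062). In high-dose forestomach the largest was that of Slc15a3, at -0.59 (SE 0.37, limma adjusted p = 1.00).

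Of 13 other secreted antibacterial proteins, 12 had a probe, and none was called at any dose in any tissue. In high-dose liver 7 of the 9 kept were higher, with a median of 0.41, but without mouse 17 the median was -0.01 and 4 were higher. The largest was Lcn2 (lipocalin 2, which withholds iron from bacteria), at 1.70 (SE 0.61, limma adjusted p = 0.52). In high-dose lung Reg3g, a lectin that acts on Gram-positive bacteria, had the largest difference at 1.67 (SE 1.08, limma adjusted p = 0.75). In high-dose forestomach Lyz1, a lysozyme that cleaves peptidoglycan, had the largest at 1.12 (SE 0.47, limma adjusted p = 1.00).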

How the data were processed

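RNA of each tissue (Cy5) and a universal mouse reference RNA (Cy3) were hybridised together, with no dye swap. The authors deposited scanner files with median intensity per spot and channel and a log10 ratio from Feature Extraction (version 11.0.1.1 for liver and 10.7.3.1 for the others, per the file headers). They also deposited a table of processed log2 ratios, made by LOWESS without background subtraction. Here, within-array loess was applied to the medians of both channels with limma 3.58.1 (R 4.3.3), with control spots (3671 per array) at weight 0 and flagged spots left out, and spots of 1 probe averaged to 55681 probes. A probe was kept where it was well above background on at least 3 lung, 2 liver or 3 forestomach arrays, the size of the smallest group, or on 4 of the 12 vehicle arrays for tissue comparisons. Probes were named through RefSeq accessions (GRCm38.p6, 26413 probes named). The study's MAANOVA test was replaced by lmFit and eBayes of limma, with 1 fit per tissue over its dose groups. Calls needed a Benjamini-Hochberg adjusted p no greater than 0.05 and a 1.5-fold difference or more. The fit was tested on simulated data. The members, gene lists and tests were chosen with earlier results of these data known. Genes named are all members, called genes of the lists and the largest change of each list per tissue at the high dose, the 5 probes most like a member, and Cyp1a1, Cyp1b1 and Ahrr as an exposure check. Other genes are named, without values, to say what a list holds. Replicates are separate mice. Alternatives were the scanner ratios, the authors' processed log2 values, normexp correction (offset 50), no filter, slide or mouse as a block, 2 groups in the fit, spike-in centring, the glandular score as a covariate and leaving out each mouse. The sample channel (normalised with both channels), and the list counts and a bound without mouse 17 (liver) or mouse 12 (lung), were added after seeing the data.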

Additional observations from a re-analysis of the deposited data

How the results depend on the processing

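Of 501 pairs of a member result and an alternative, 474 kept the direction and the side of the threshold (or moved by less than 1 SD). The pairs include tissue comparisons that follow in part from the filter and the high-dose liver values that chose the family. They also include counts of calls that stayed at 0, so the tally is no measure of robustness. The exceptions follow, without the sizes of Pglyrp1 differences from vehicle liver, where it was at background, and the cause was not tested. In the scanner software's log ratios, Pglyrp1 in high-dose liver moved to a larger difference. Centred on the spike-ins, Pglyrp2 in liver turned to 0.20 (A_52_P636427) and 0.31 (A_66_P120472) at the medium dose and moved to -0.34 and -0.19 at the high dose, Pglyrp1 at the medium dose was the 1 member probe called (as were 24296 of 30460 probes), and Pglyrp1 in high-dose lung turned to -0.25. Between vehicle lung and forestomach the same centring raised Pglyrp1 to 1.31, which made 1 member probe called. It also turned the fitted Pglyrp2 differences to 0.32 and 0.48, but with 1 of these 8 arrays above background their sign has no meaning. The Pglyrp1 call there also appeared without vehicle forestomach of mouse 2 (1.11), and the count ranged from 0 to 1 over the mice left out. In forestomach Pglyrp1 changed sign with the glandular score (-0.30, -0.10 and 0.26 by dose) and, at the high dose, in the authors' table (0.039), with normexp (0.048), in the sample channel (0.41) and over the mice left out (-0.88 to 0.50). In lung, leaving out mice gave -0.12 to 0.41 at the low, 0.044 to 0.48 at the medium and -0.059 to 0.25 at the high dose. The mouse as a replicate block changed no member call (3 probes in both liver comparisons, 0 between lung and forestomach). Counts of all probes called moved more: in liver from 0 to 5 at the low dose (0 as reported), 0 to 159 at the medium (13) and 2 to 46 at the high dose (16), but 20561 at the high dose with spike-in centring, and in lung 0 to 1, 0 to 11 and 3 to 26 (0, 5 and 11 as reported). In forestomach, 333 probes were called at the low dose with only 2 groups in the fit. The authors' table was not run for liver or for the tissue comparisons, since its liver columns could not be matched to the scanner values by probe. Dim signal limits Pglyrp3, Pglyrp4 and, in liver, Pglyrp1.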

Other observations

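The authors' processed log2 ratios of lung and forestomach followed the scanner values of the same probes, with a Pearson r over probes of 0.997 to 0.999 in the 15 lung columns and 0.994 to 0.999 in the 14 forestomach columns. In the 13 liver columns r lay between -0.003 and 0.00034 under the same probe names. The column medians were near 0 in all tissues, from -0.043 to -0.0017. Liver rows of that table therefore could not be named, and every liver value above comes from the scanner files.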
